A study of Homo sapiens with 3 samples.

Results

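Interferon and NF-kB response genes were followed in Huh7 cells, an established human hepatoma line, given chlorogenic acid (CA), a polyphenol from plants that the study tested for its power to make tumor cells differentiate. The set held 44 genes of 19740 genes named on the arrays. It was made up of 28 genes of the interferon response (the interferon arm) and 16 genes of NF-kB and interleukin-6 signaling (the NF-kB and IL-6 arm). STAT3, which interleukin-6 activates, and the adaptor PSTPIP2 were counted in the interferon arm. Members were found through the RefSeq accession of each probe, and the rule used no measured value, although the list was drawn up with earlier results of these data known. The groups compared were untreated cells, cells given CA 50 μM and cells given CA 100 μM, both for 24 h. The methods name DMSO, the solvent of CA, as the untreated reference, and the cells carried no other treatment. Total RNA of each group was labeled with Cy3 and hybridized to 1 one-color Agilent array, so that every group had 1 array and no difference given here could be tested between samples.

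Interferons are secreted proteins that signal through STAT and IRF transcription factors to the ISRE, a short promoter element, and switch on antiviral effectors, RNA sensors and the antigen presentation machinery. NF-kB is a family of dimeric transcription factors held in the cytoplasm by IkB proteins. Once released, it drives chemokines, adhesion molecules and its own inhibitors, while interleukin-6 acts through IL6R, IL6ST and STAT3 and is a main inducer of the acute-phase response in hepatocytes. The question here was whether the basal level of these transcripts differed between untreated and CA-treated hepatoma cells.

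Promoters of 4 members are shown first, since they hold the elements that give both arms their names and belong to genes described below. IFIT3, an antiviral effector, and TAP1, a peptide transporter for antigen presentation, stand for the ISRE and lay on opposite sides of untreated cells at CA 50 μM. CXCL1 and CXCL2, neighboring neutrophil chemokine genes, stand for the NF-kB site. Each line gives the 160 bases before the start of the gene, 5′ to 3′ on the strand of the gene, from RefSeq on GRCh38.p14. Capitals mark the ISRE core in IFIT3 and TAP1 and the NF-kB site in CXCL1 and CXCL2. The windows were chr10:89327837-89327996 on the plus strand for IFIT3, chr6:32853705-32853864 on the minus strand for TAP1, chr4:73869233-73869392 on the plus strand for CXCL1 and chr4:74099196-74099355 on the minus strand for CXCL2.
IFIT3: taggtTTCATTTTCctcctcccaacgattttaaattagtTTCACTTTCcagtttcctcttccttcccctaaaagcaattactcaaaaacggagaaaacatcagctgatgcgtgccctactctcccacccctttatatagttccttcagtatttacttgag
TAP1: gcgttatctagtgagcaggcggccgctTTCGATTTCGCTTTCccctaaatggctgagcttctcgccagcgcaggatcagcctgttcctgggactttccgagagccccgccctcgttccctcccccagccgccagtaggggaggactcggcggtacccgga
CXCL1: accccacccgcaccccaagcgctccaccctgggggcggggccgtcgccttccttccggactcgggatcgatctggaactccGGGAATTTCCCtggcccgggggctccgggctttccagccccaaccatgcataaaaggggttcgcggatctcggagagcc
CXCL2: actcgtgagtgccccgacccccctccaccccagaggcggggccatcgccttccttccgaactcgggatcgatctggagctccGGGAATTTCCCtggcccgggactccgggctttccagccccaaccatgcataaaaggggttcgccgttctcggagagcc

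The ISRE core was searched as GAAANNGAA on both strands of the 300 bases from 250 before to 50 after the start. In IFIT3 it lay at -155 and -121, and in TAP1 at -133 and -127 in overlapping copies, all on the opposite strand. The NF-kB site, read on both strands over the same 11 bases, began at -79 in CXCL1 and at -78 in CXCL2, and both promoters shared a run of 42 identical bases in the windows shown. The motifs were not exclusive. TAP1 also held NF-kB sites at -72, left in lower case above, and at 23, and CXCL2 held an ISRE core at -217, outside the window shown. Among 36 members with an entry in the promoter table, 15 of 22 of the interferon arm held an ISRE core (68.2%), against 8.29% of all 27305 promoters. It was found in 12 of 14 effectors with an entry, and in 0 of 4 interferon pathway transcription factors, too few promoters to read against 8.29%. A second interferon motif, GAS, was searched as TTCNNNGAA. Of those 4 promoters, 2 held it, IRF1 and IRF9 (50%, against 7.88% of all promoters), as did 6 of 22 in the interferon arm. An NF-kB site was found in 8 of 14 promoters of the NF-kB and IL-6 arm (57.1%), against 10.8% of all promoters, and in 7 of 22 of the interferon arm. Of the chemokine and adhesion promoters with an entry, 4 of 6 held an NF-kB site. The promoter of CXCL8 held a TATAAA box at -31 and no match to the NF-kB pattern in this window. IRF3, IRF7, IFIT2, IFITM2, DHX58, HLA-E, RELB and CCL2 had no entry.

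Most members were expressed above background in Huh7 cells. Probes were found for 42 members, and 40 had a probe well above background, by the flag of the scanner software, on every array (95.2% of those with a probe, against 73.7% of all genes). The members were listed with earlier results known, which may bear on this share. Among other interferon genes with a probe, 61 of 83 met the flag on every array (73.5%). It was met by 53 of 64 other NF-kB genes (82.8%) and 13 of 16 other IL-6 family genes (81.25%). IFI44, an interferon-induced gene, read 4.60, 7.65 and 10.9 intensity units in untreated, CA 50 μM and CA 100 μM cells, and CCL2, a monocyte chemokine, read 5.12, 5.53 and 5.85. On no array did either pass the flag. IFI27 and NFKB2 had no probe matched here. The flag alone does not tell cell types apart here, since 12 of 14 immune and endothelial markers also met it on all 3 arrays, between 21.4 and 2447 intensity units in untreated cells. The hepatocyte markers ALB, AFP, TTR, APOA1, APOA2, APOB, SERPINA1 and FGB read between 16641 and 109428 intensity units in untreated cells, whereas TF and HNF4A were well above background on 1 array each.

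Each array was scaled to its 75th percentile of signal, which was 1059 intensity units in untreated cells, 1207 at CA 50 μM and 1249 at CA 100 μM. Signals below are given before this scaling and log2 ratios after it. A log2 ratio at or past 1 (2-fold) or 0.5 (1.41-fold) was counted, with no test. As the error inside an array, probes printed 10 times had ratios to untreated cells whose SD between spots was 0.065 (median, log2 scale) at the lower dose and 0.064 at the higher. For genes with several probes, the log2 ratios of the probes differed by a median of 0.23 at the lower dose and 0.17 at the higher, which is nearer to the uncertainty of a single member. Probes of 1 gene shared their sign in 53.7% of such genes at the lower dose and 51.3% at the higher, and in 4 of 7 and 6 of 8 members, which limits the reading of small ratios and of counts above 0. Neither covers the variation between cultures, extractions and hybridizations. Areas of locally raised signal covered 5.29% of the gene spots of the CA 100 μM array, and of the probes representing members only those of IFITM1, RELA and ICAM1 had a spot in them.

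At CA 50 μM, few members lay far from untreated cells, and those that did lay on both sides. Of 40 members measured, 1 was at least 2-fold higher (0.456% of all 14700 genes measured were) and 1 was at least 2-fold lower (0.517% of all genes). At the smaller limit of 0.5, 4 members were higher, or 10%, against 6.16% of all genes, and 7 were lower, or 17.5%, against 3.36% of all genes. The higher members were IFIT3, IRF3, RELA and IRF1, and the lower ones were IRF7, IFITM1, HLA-E, CXCL8, IFIT2, DHX58 and TAP1. The median log2 ratio was -0.16 in the interferon arm and -0.17 in the NF-kB and IL-6 arm, against -0.04 over all genes, and 13 of 40 members were above 0 (32.5%, against 43.7% of all genes). Since bright genes had lower ratios at this dose, members were also set against genes of the same signal class. The median distance of a member from its class median was -0.16 in both arms, with 27 of 40 members below it. With normexp background correction, whose offset shrinks ratios of dim probes and which left out background-flagged spots, 0 members were past 2-fold, 1 (IRF3) was at least 0.5 higher and 2 (IRF7 and HLA-E) were at least 0.5 lower, while IFIT3 came to 0.044.

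**Figure D1:**
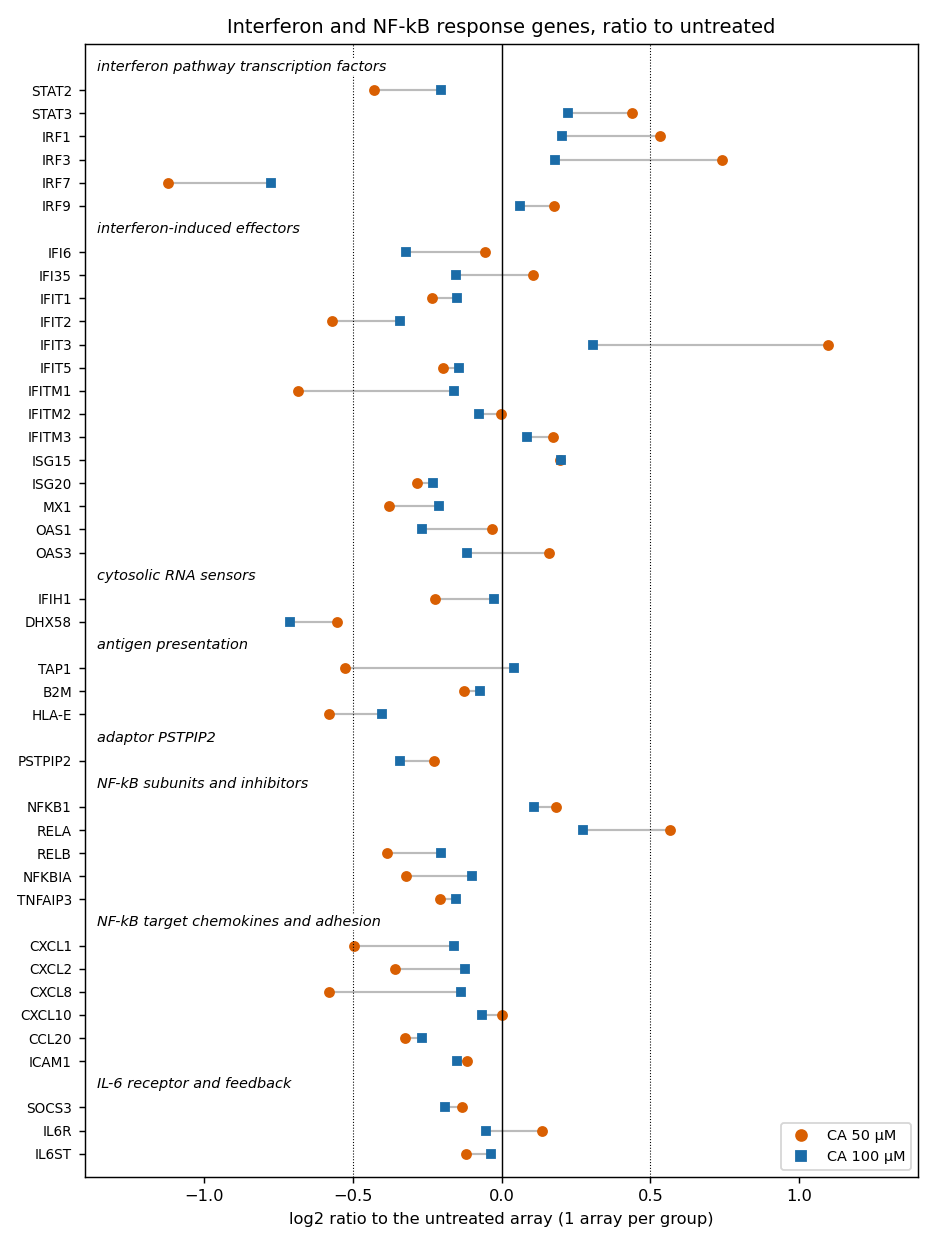
Log2 ratio to the untreated array (horizontal axis) of the 40 measured members, grouped by role, at CA 50 μM (circles) and CA 100 μM (squares), with 1 array per group, no error bars and dotted lines at -0.5 and 0.5. Most points lie between the dotted lines and left of 0, with IFIT3 (1.096) and IRF7 (-1.12) the farthest out at CA 50 μM.

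At CA 100 μM, ratios to untreated cells spread less than at CA 50 μM, in the members and over all genes. The SD of log2 ratios was 0.23 against 0.42 in the members and 0.25 against 0.31 over all genes. None of 40 members was at least 2-fold higher or lower, where 0.451% and 0.205% of all 14640 genes were. At the limit of 0.5, 0 members were higher, against 2.36% of all genes, and 2 were lower (IRF7 and DHX58), or 5%, against 2.27% of all genes. The median log2 ratio was -0.15 in the interferon arm and -0.13 in the NF-kB and IL-6 arm, against -0.03 over all genes, and 10 of 40 members were above 0 (25%, against 42.3% of all genes). Both comparisons share the untreated array, so that an error of that array would enter both.

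Set against each other, the CA 100 μM array and the CA 50 μM array differed at few members. No member was 2-fold higher or lower, where 0.586% and 0.0886% of all 14666 genes were. TAP1 (0.57) and IFITM1 (0.52) were at least 0.5 higher at CA 100 μM than at CA 50 μM (5% of members, 1.8% of all genes), and IFIT3 (-0.79) and IRF3 (-0.56) were at least 0.5 lower (5% of members, 2.78% of all genes). All 4 were past the limit of 0.5 at CA 50 μM against untreated, a comparison that shares the CA 50 μM array. Median log2 ratios were -0.04 in the interferon arm and 0.06 in the NF-kB and IL-6 arm.

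**Figure D2:**
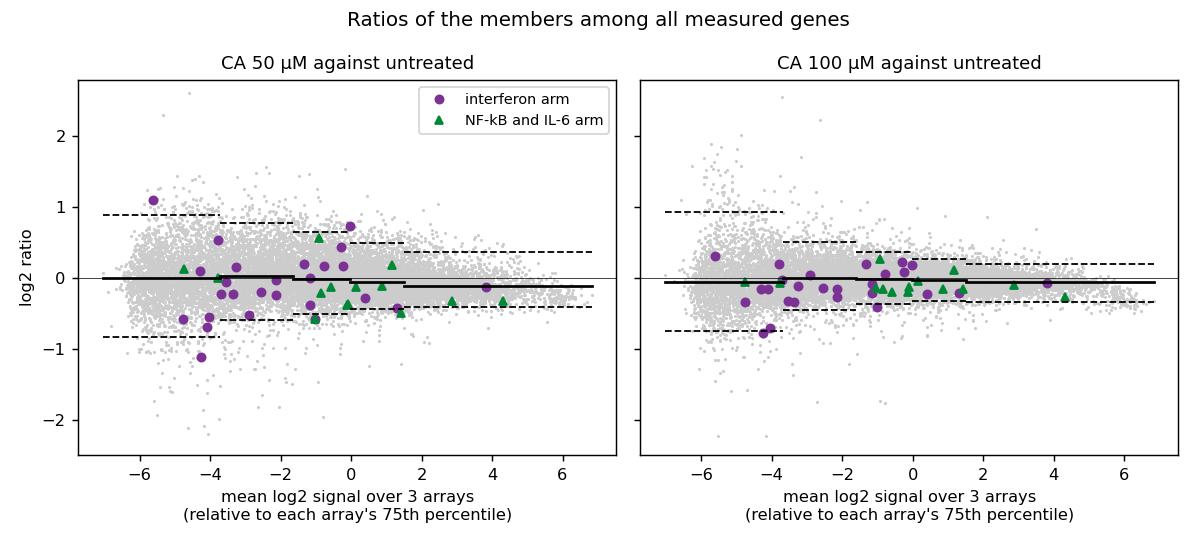
Log2 ratio (vertical axis) against mean log2 signal relative to the 75th percentile of each array (horizontal axis) for all measured genes (gray), with the members in purple circles (interferon arm) and green triangles (NF-kB and IL-6 arm); solid lines are the medians and dashed lines the middle 95% of 5 classes of signal, and 1 gene at 7.43 at CA 100 μM lies off the axis. Of 40 members, 6 lie outside the dashed lines at CA 50 μM and 2 at CA 100 μM.

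Genes of low signal scattered more widely, so that the same ratio was less common among bright genes. In the dimmest of 5 classes of signal, the middle 95% of log2 ratios at CA 50 μM ran from -0.82 to 0.88, and in the brightest it ran from -0.41 to 0.37. Against the genes of their own class, 6 members lay outside the middle 95% at CA 50 μM (15.0% of members, 5% of all genes), namely IFIT3 and IRF3 above it and IRF7, HLA-E, CXCL1 and CXCL8 below it. At CA 100 μM it was 2 members (5% of members, 5.02% of all genes), IRF7 and HLA-E, both below. Between the doses it was 5 members (12.5% of members, 5.01% of all genes), with TAP1, CXCL1 and CXCL8 above and IRF3 and IFIT3 below. At CA 50 μM, HLA-E and the brighter probe of CXCL1 stood out more by this measure than DHX58 or IFIT2, whose ratios came from dim probes.

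Of the 6 genes grouped as interferon pathway transcription factors, 4, with STAT3 among them, were above untreated cells (66.7%) and 2 below at both doses. Of all genes, 43.7% were above 0 at CA 50 μM and 42.3% at CA 100 μM. IRF7, which amplifies interferon-alpha production, read 85.8 intensity units in untreated cells, 45.1 at CA 50 μM and 59.3 at CA 100 μM. It was the lowest member at both doses, 2.17-fold lower at CA 50 μM (log2 ratio -1.12) and at -0.77 at CA 100 μM, from a single probe of 1 spot. IRF3, the factor that starts interferon-beta transcription after RNA sensing, went the other way. Its brighter probe read 837.3, 1595 and 1118 intensity units (log2 ratios 0.74 and 0.18 for CA 50 μM and CA 100 μM), and its other probe read 556.5, 898.6 and 701.5 (0.50 and 0.10). Both probes of IRF3 were therefore highest at CA 50 μM.

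IRF1, a factor induced by interferon-gamma, read 65.0 intensity units in untreated cells, 107.2 at CA 50 μM and 88.3 at CA 100 μM, with log2 ratios of 0.53 and 0.20. STAT3, the factor activated by interleukin-6, was measured by a pair of probes. The brighter read 739.7, 1143 and 1018 intensity units (log2 ratios 0.44 and 0.22). The other, printed 10 times, gave a log2 ratio of 0.56 ± 0.12 (SD, n = 9 spots) at CA 50 μM and 0.19 ± 0.14 (SD, n = 10 spots) at CA 100 μM. All spots of this probe, which share 1 RNA sample per group, lay above 0 at both doses, the lowest being 0.36 and 0.0025. IRF9, the DNA-binding part of the complex that type I interferon activates, was near untreated at 585.9, 755.1 and 720.8 intensity units (log2 ratios 0.18 and 0.06), whereas STAT2, its partner, stood at -0.43 and -0.20.

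**Figure D3:**
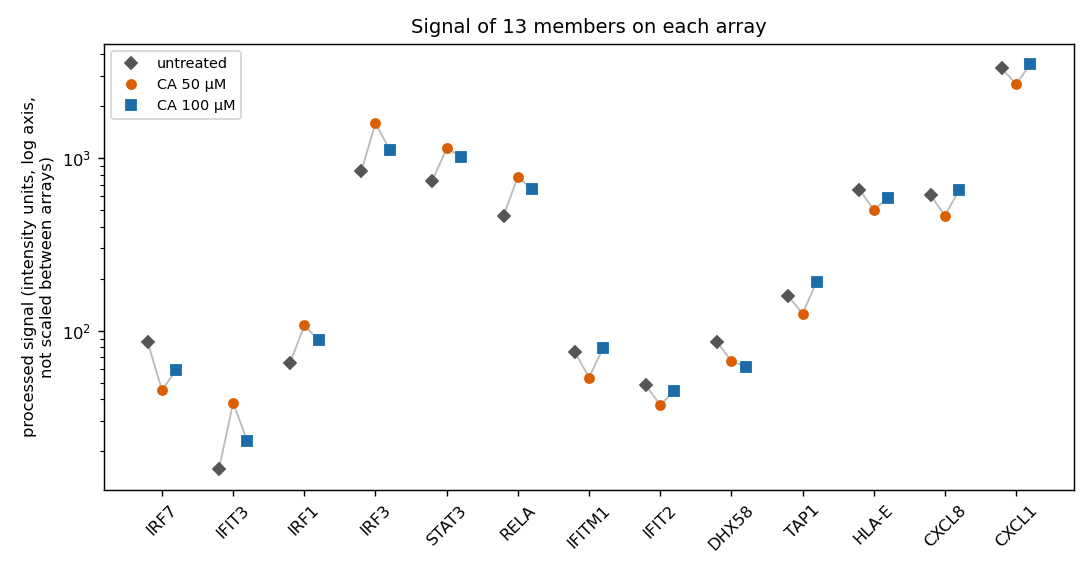
Processed signal in intensity units (vertical log axis, before scaling between arrays) of 13 members on the untreated array (diamonds), the CA 50 μM array (circles) and the CA 100 μM array (squares), 1 value per array. IRF7 reads 85.8 in untreated cells and 45.1 at CA 50 μM, and IRF3 reads 837.3 and 1595; signals of different genes come from different probes and are not comparable.

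The interferon-induced effectors as a group lay near all genes at CA 50 μM, with a median log2 ratio of -0.04 over 14 measured members. At CA 100 μM their median was -0.15, against -0.03 over all genes. There 11 of 14 were below 0 and 3 above it (21.4% above, against 42.3% of all genes). IFIT3, an RNA-binding antiviral effector, read 15.7, 38.2 and 22.8 intensity units and was 2.14-fold higher at CA 50 μM (log2 ratio 1.096), with 0.31 at CA 100 μM. In untreated cells its signal was close to the lowest signal well above background on that array, 12.2 intensity units. Its relatives stood elsewhere. IFIT2 read 48.2, 37.03 and 44.8 intensity units (-0.57 and -0.34), while IFIT1 (-0.23 and -0.15) and IFIT5 (-0.20 and -0.14) stood slightly below untreated cells at both doses. The IFIT genes of this array hence shared no direction.

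IFITM1, a membrane protein that restricts virus entry, read 75.3, 53.5 and 79.6 intensity units at its brighter probe (log2 ratios -0.68 and -0.16). Its other probe read 25.1 intensity units in untreated cells and 20.7 at CA 100 μM, while its 9.25 at CA 50 μM did not clear the background flag. Had that probe read the lowest signal well above background on the CA 50 μM array, 12.9 intensity units, it would be 2.28-fold lower than in untreated cells. This is not a strict limit, since probes without the flag could read higher there, such as that of TLR3 at 13.6. Both probes of IFITM1 were thus lowest at CA 50 μM. The spot of the brighter probe lay in an area of raised signal on the CA 100 μM array, and the other probe, outside such areas, gave -0.51 at that dose. IFITM2 (-0.0018 and -0.08) and IFITM3 (0.17 and 0.09), of the same family, were near untreated cells.

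The other effectors were IFI6, IFI35, ISG15, ISG20, MX1, OAS1 and OAS3, and all lay between -0.38 and 0.20 at both doses. ISG15, a ubiquitin-like modifier and one of the strongest interferon targets, was at 0.20 at both doses, and MX1, an antiviral GTPase, was at -0.38 and -0.21. Of the cytosolic RNA sensors, DHX58 (LGP2), a regulator of RIG-I-like receptors, read 85.8, 66.6 and 61.9 intensity units (-0.55 and -0.71). Like IRF7, it was more than 0.5 below untreated cells at both doses, as was the dimmer probe of IFITM1 described above. IFIH1 (MDA5), the sensor of long double-stranded RNA, stood at -0.22 and -0.03.

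All 3 antigen presentation members were below untreated cells at CA 50 μM, where 8276 of all 14700 genes were too. HLA-E, a non-classical class I molecule that NK cells recognize, read 656.6, 501.4 and 586.7 intensity units (log2 ratios -0.58 and -0.40). TAP1 read 158.4, 125.6 and 192.4 intensity units (-0.52 and 0.04). B2M, the light chain of class I molecules, gave -0.13 ± 0.03 (SD, n = 8 spots) at CA 50 μM and -0.07 ± 0.03 (SD, n = 9 spots) at CA 100 μM, from 15604, 16313 and 17494 intensity units. HLA-E and TAP1 were thus lowest at CA 50 μM, while B2M stayed within 0.2 of untreated cells. Against the median of its own signal class, B2M stood at -0.01 at CA 50 μM. HLA probes can share sequence with other class I genes, which limits the reading of HLA-E. PSTPIP2, an adaptor of the cytoskeleton, stood at -0.23 and -0.34.

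NF-kB subunits and inhibitors shared no direction. RELA, the p65 subunit, stood above untreated cells and its inhibitor NFKBIA below at CA 50 μM. The brighter RELA probe read 463.4, 782.4 and 660.0 intensity units, and its spots gave 0.56 ± 0.08 (SD, n = 9 spots) at CA 50 μM and 0.27 ± 0.05 (SD, n = 9 spots) at CA 100 μM. The other RELA probe, with 99.1, 156.5 and 137.7 intensity units, gave 0.47 and 0.24. NFKB1, the p105 and p50 subunit, read 2236, 2887 and 2838 intensity units, and its spots gave 0.19 ± 0.11 (SD, n = 9 spots) and 0.11 ± 0.10 (SD, n = 10 spots). NFKBIA, the IkB-alpha inhibitor and itself an NF-kB target, read 8494, 7747 and 9360 intensity units, with -0.32 ± 0.04 (SD, n = 8 spots) and -0.10 ± 0.05 (SD, n = 8 spots). All spots of the brighter RELA probe lay above 0 and all spots of NFKBIA below 0 at both doses, but spots share 1 RNA sample and 1 scaling per array. Against the medians of their own signal classes, RELA stood at 0.58 and 0.28, and NFKBIA, a bright gene, at only -0.21 and -0.04. RELB (-0.38 and -0.20) and TNFAIP3 (A20), a ubiquitin-editing inhibitor (-0.21 and -0.15), were below untreated cells.

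**Figure D4:**
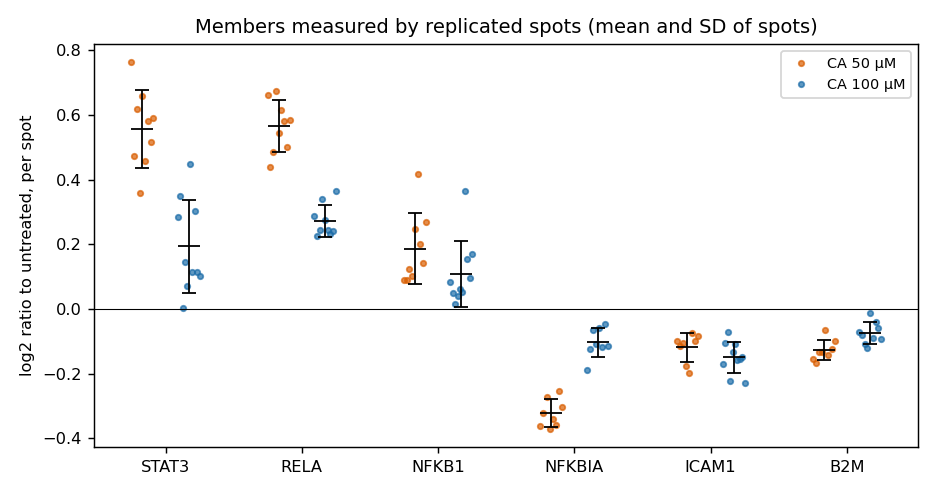
Log2 ratio to the untreated array (vertical axis) of single spots of the 6 members printed 10 times, at CA 50 μM (orange) and CA 100 μM (blue), with black bars for the mean and SD of the spots. STAT3 and RELA lie near 0.56 at CA 50 μM and closer to 0 at CA 100 μM, and NFKBIA lies at -0.32 and -0.10; the spots share 1 RNA sample per group.

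Of the 6 chemokine and adhesion members measured, 1 was above 0 at CA 50 μM (16.7%, against 43.7% of all genes) and 0 at CA 100 μM (42.3% of all genes). The medians were -0.34 and -0.14, of which the former draws on the brighter probes of CXCL1 and CXCL2; the means over their probes were -0.23 and -0.17 at CA 50 μM. CXCL8 (interleukin-8), a neutrophil chemokine, read 608.1, 464.5 and 652.3 intensity units (log2 ratios -0.58 and -0.14). CXCL1 and CXCL2, whose NF-kB sites are printed above, differed between their own probes. The brighter CXCL1 probe read 3315, 2682 and 3502 intensity units (-0.50, just inside the limit of 0.5, and -0.16), while the dimmer read 476.4, 554.3 and 535.6 (0.03 and -0.07). The brighter CXCL2 probe read 1104, 981.8 and 1196 intensity units (-0.36 and -0.12), and the dimmer read 622.0, 715.5 and 710.5 (0.01 and -0.05). The probes of CXCL1 and of CXCL2 thus disagreed at CA 50 μM by more than the median difference between probes of a gene, 0.23. CCL20, a chemokine for CCR6-bearing cells, stood at -0.33 and -0.27, and ICAM1, an adhesion molecule, at -0.12 and -0.15. CCL20 was in the brightest signal class, and against the median of that class it stood at -0.21 at both doses. CXCL10, an interferon-gamma-induced chemokine, was the 1 member above 0 at CA 50 μM, at only 0.0009, with -0.06 at CA 100 μM. Its dimmer probe gave -0.05 and 0.13.

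IL-6 receptor and feedback genes stayed within 0.2 of untreated cells at their brightest probes. IL6R read 38.8, 48.6 and 44.1 intensity units (0.13 and -0.05). IL6ST (gp130), the shared signaling chain, had 7 probes, and 4 of them passed the background flag on every array. Its brightest read 1208, 1268 and 1391 intensity units (-0.12 and -0.03), while the log2 ratios of all 4 ran from -0.18 to 0.38 at CA 50 μM and from -0.03 to 0.75 at CA 100 μM. At CA 100 μM the brightest of the 4 gave the lowest ratio, and no single ratio of IL6ST under CA can be taken from these probes together. SOCS3, the feedback inhibitor of STAT3, stood at -0.13 and -0.19.

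**Figure D5:**
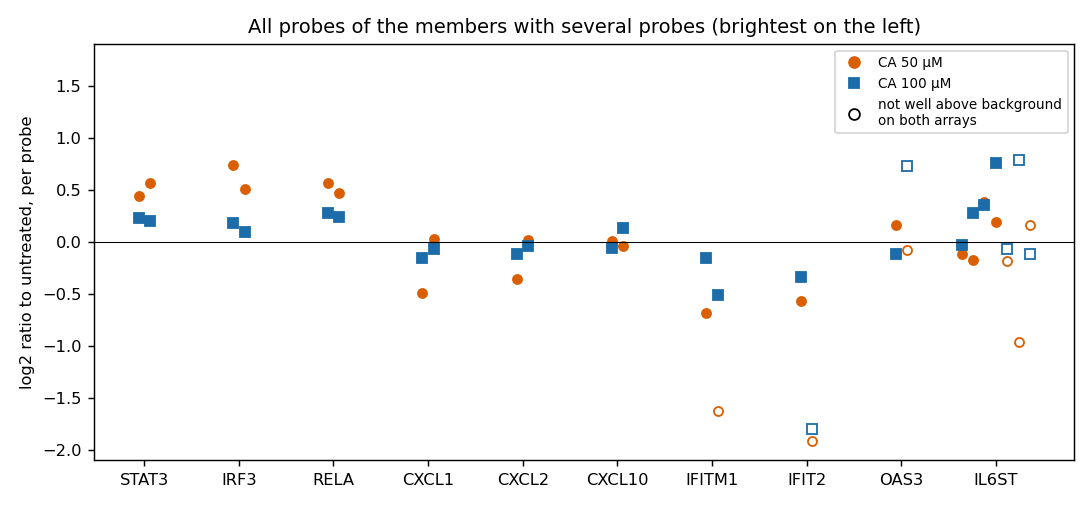
Log2 ratio to the untreated array (vertical axis) of every probe of the 10 members with more than 1 probe, brightest on the left, at CA 50 μM (circles) and CA 100 μM (squares), open where the probe was not well above background on both arrays. Probes of STAT3, IRF3 and RELA lie together above 0 at CA 50 μM, whereas those of CXCL1, CXCL2 and IL6ST part.

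Of the ligands of these pathways, most were dim or below background, while LIF, an IL-6 family ligand, read 981.1, 1195 and 1176 intensity units (log2 ratios 0.095 and 0.024). IFNB1, IFNG, TNF and IL1A did not pass the background flag on any of the arrays. IL6 read 22.1 intensity units in untreated cells and 17.04 at CA 100 μM, while its 12.6 at CA 50 μM was not above background. The same held for IFNL1, a type III interferon, with 20.7, 10.9 and 18.1. IL1B, an inducer of NF-kB, read 85.4, 71.1 and 80.6 intensity units (log2 ratios -0.45 and -0.32), and LTB, a TNF family ligand, read 139.4, 95.4 and 132.1 (-0.74 and -0.32). Among receptors, TNFRSF1B did not pass the flag on any array, and TLR3 and TLR4 passed on 1 array each. The receptor chains that follow were above background on every array. Type I interferon receptor chain IFNAR1 stood at -0.36 and -0.17, and IFNAR2 at 0.095 and 0.079 at its brightest probe, with -0.48 and 0.30 at its other probes at CA 50 μM. IFNGR1 was at -0.28 and -0.13, IFNGR2 at 0.02 and 0.03, TNFRSF1A at -0.06 and 0.05, and IL1R1 at 0.24 and 0.13.

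Other genes of these pathways were counted in the same way. Of 61 further interferon pathway and target genes measured at CA 50 μM, 0 were 2-fold changed, 5 were at least 0.5 higher (8.197%) and 5 at least 0.5 lower (8.197%), with a median log2 ratio of 0.02. At CA 100 μM, 1 of 64 was at least 2-fold higher, TYK2, a kinase of the interferon receptor, with 22.6, 38.9 and 60.0 intensity units (0.60 and 1.17), but its spot lay in an area of raised signal on that array. In all, 3 of 64 were at least 0.5 higher (4.69%) and 3 at least 0.5 lower (4.69%) at that dose, with a median of -0.04. Of 53 further NF-kB genes, 2 were at least 0.5 higher (3.77%) and 5 at least 0.5 lower (9.43%) at CA 50 μM (median -0.10), against the 6.16% and 3.36% of all genes, and of 54 at CA 100 μM, 0 were higher and 1 was lower (median -0.03). Of 13 further IL-6 family genes measured at CA 50 μM, 1 was at least 0.5 higher and 0 were lower (median 0.05), and of 14 at CA 100 μM, 0 were higher and 1 was lower (median -0.02). The medians of the further interferon and IL-6 family genes were thus not below that of all genes (-0.04) at CA 50 μM. Those of the members and of the further NF-kB genes were. At CA 100 μM the medians of the 3 further lists lay near that of all genes, -0.03. None of these differences could be tested with 1 array per group.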

How the data were processed

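Total RNA of untreated, CA 50 μM and CA 100 μM Huh7 cells was hybridized by the authors to 1 Agilent 4 × 44K array per group. The authors extracted the deposited intensity values with Agilent Feature Extraction 11.0.1.1, per the submitters' processing notes, which subtracted background and removed trends over the array surface. A table of log2 values per probe was deposited too; how the authors made it is not given in the sources used here. Its columns shared a median of 6.22 and correlated with the log2 processed signal at 0.99995 or more, and it served as an alternative only.

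Control spots and spots with outlier flags were left out, in number 429 for untreated cells, 569 for CA 50 μM and 596 for CA 100 μM. The processed signal was divided by its 75th percentile on that array and put on a log2 scale, and spots of a probe were averaged. Ratios were formed for probes well above background, on at least 50% of their spots, on both arrays, and the brightest such probe represented a gene. RefSeq accessions named 25771 of 34127 probes through a table of GRCh38.p14. With 1 array per group no test, no error between samples and no replicate left out was possible, and the number of arrays limits the precision.

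Members and lists were chosen with earlier results of these data known. Values on every array were given for members past 0.5, for STAT3, RELA, NFKB1, NFKBIA, IRF3, IRF9, B2M, IL6R and IL6ST, and signals or ratios for the main ligands and receptors; genes of the further lists were named past 1. Areas of raised signal were found around each spot, within 17 rows and 7 columns, where at least 5 and at least 25% of otherwise dim spots were 4-fold brighter on 1 array. Alternatives were quantile, cyclic loess and median scaling, normexp background correction of median spot signals (offset 50, without spots with background flags), the deposited log2 table, a background filter on 1 array or none, leaving out saturated spots, raised areas or background-flagged spots, and the mean over probes. Python 3.11.15, pandas 2.3.3, R 4.3.3 and limma 3.58.1 were used, and the steps were tested on simulated data.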

Additional observations from a re-analysis of the deposited data

How the results depend on the processing

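Counts of members past a limit changed most under normexp, while the medians of both arms kept their sign against untreated cells. Under normexp, which adds an offset of 50 units and so shrinks ratios of dim probes, and which was run without background-flagged spots (among them that of IFITM1), the members at least 2-fold higher and at least 2-fold lower at CA 50 μM went from 1 and 1 to 0 and 0. Those at least 0.5 higher went from 4 to 1 (IRF3) and those at least 0.5 lower from 7 to 2 (IRF7 and HLA-E). At CA 100 μM, normexp left 1 member at least 0.5 lower, IRF7. Between the doses it left 0 members higher and 1 lower, IRF3. Without a background filter, 1 member was at least 2-fold and so also 1 at least 0.5 higher at CA 100 μM, namely IFI44, which was below background on every array. Leaving out background-flagged spots alone left 6 members at least 0.5 lower at CA 50 μM. Without the areas of raised signal or without those spots, IFITM1 came to -0.51 at CA 100 μM, which made 3 members at least 0.5 lower there. Without the areas of raised signal, 1 member was higher between the doses, since IFITM1 was lost, and with the mean over probes 1 was lower, since IRF3 came to -0.48. IFIT3 at CA 50 μM ranged from 0.044 (normexp) to 1.096, and IRF7 from -1.20 to -0.64.

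Under the 11 alternatives, the median of the interferon arm at CA 50 μM and at CA 100 μM stayed below 0, as did that of the NF-kB and IL-6 arm. The sign of the ratio was the same under every alternative that gave a value (9 of 11 for IFITM1 and OAS3 at CA 50 μM, 10 for OAS3 at CA 100 μM) for 35 of 40 members at CA 50 μM and for 35 of 40 at CA 100 μM. The exceptions were CXCL10, IFI35, IL6R, IL6ST and OAS1 at CA 50 μM and B2M, CXCL10, IFIT3, IL6ST and IRF1 at CA 100 μM. No paired analysis was possible because each group had 1 array.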

Other observations

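HLA-B and HLA-C, singled out after their values had been seen, were among the further interferon targets that stood lowest at CA 50 μM. HLA-C, from a single probe, read 760.3, 450.3 and 623.7 intensity units in untreated, CA 50 μM and CA 100 μM cells, with log2 ratios of -0.95 and -0.52 to untreated cells. HLA-B had a pair of probes, at -0.89 and -0.42 for the brighter and at -1.25 and -0.98 for the dimmer. HLA-F, at 0.05 and 0.36, and HLA-G, at -0.30 and -0.18, shared neither value. With HLA-E at -0.58 and -0.40, HLA-B and HLA-C were lower at both doses at every probe of these genes measured. Class I probes can bind transcripts of other class I genes, and their part in these values was not tested.

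Across all genes with a promoter entry, those with and without an ISRE core had nearly the same median ratio. At CA 50 μM the median log2 ratio was -0.04 over 758 genes with a match and -0.04 over 10935 without. For the NF-kB site it was -0.04 over 1493 genes with a match and -0.04 over 10200 without. In the interferon arm, 13 members with an ISRE core had a median of -0.20 at CA 50 μM, and 7 without it 0.11, and at CA 100 μM these medians were -0.12 and -0.15. These leave out the measured members with no promoter entry, among them IRF7, HLA-E, IFIT2 and DHX58, which were among the lowest at CA 50 μM.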
